A study of Mus musculus with 14 samples.

Results

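Mitochondrial ribosomal protein genes are the nuclear genes for the proteins of the ribosome that works inside mitochondria. They were taken here as the protein-coding genes of the mm10 RefSeq gene table whose symbol begins with Mrpl or Mrps followed by a digit. The rule gave 78 genes, 49 named Mrpl and 29 named Mrps, of 21887 protein-coding genes on placed nuclear chromosomes. A peak was assigned to a gene when it reached within 1 kb of the first or the last base of the gene.

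The data are acetylation of histone H3 at lysine 9 (H3K9ac), measured by chromatin immunoprecipitation and sequencing (antibody AcH3K9, abcam ab10812) in regenerating liver. All mice were male C57BL6/J animals aged 2 to 3 months, and liver was taken 12 h after partial hepatectomy (PH), the surgical removal of part of the liver that starts its regrowth. The study asked what a delay of the low blood glucose that follows PH does to this mark. The study's ChIP libraries are 6 with d22 in the title and 6 with pbs. The 6 titled d22 carry the treatment label "vehicle (1/2 strength PBS)" and the 6 titled pbs carry the label "dextrose (22.5% in vehicle)", so titles and treatment labels contradict each other. Both pooled inputs carry the dextrose label and were not analysed here. Libraries were grouped by title, no condition was inferred from the values, and a difference is always d22 minus pbs. There was no unoperated liver among the libraries used, so all values describe liver after PH. Whether each library is a different mouse is not given in the labels, and the p-values therefore speak only of the spread among these 12 libraries, part of which may be technical.

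The mitochondrial ribosome makes the few proteins that mitochondrial DNA encodes, all of them subunits of the respiratory chain and ATP synthase. Its RNAs come from mitochondrial DNA, while its proteins are encoded in the nucleus, made in the cytosol and imported. The large subunit joins amino acids and the small subunit reads the messenger RNA. H3K9ac marks nucleosomes around the start of active genes, and in liver, an organ rich in mitochondria, the genes for these proteins are broadly active. Nuclear respiratory factor 1 (NRF1), the ETS family factor GABPA and YY1 are transcription factors known to act at many nuclear genes for mitochondrial proteins.

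Sequencing depth after removal of repeated positions was between 6343891 and 13084426 tags in d22 libraries and between 6385610 and 13259411 tags in pbs libraries. One library, d22 4, stood apart by its number of peaks, 44585, against 26352 to 30698 in the other d22 libraries and 26377 to 30780 in pbs libraries. Its depth, the lowest of all at 6343891 tags, was close to the 6385610 tags of pbs 3. The authors called the peaks of each group against a pooled input of that group, and effects of input and of group cannot be told apart. Of 9 hepatocyte marker genes found, 9 had a peak in all 12 libraries, and of 5 markers of other tissues none did, with 4 of those 5 lacking a peak in any library. All 12 libraries held peaks at 3 of 5 endothelial, 0 of 6 Kupffer cell and macrophage, 0 of 5 stellate cell and 1 of 4 cholangiocyte markers. In whole liver, a mark carried by fewer cells and a weaker mark in each cell cannot be told apart.

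The stretches before the start sites are shown for 5 places that the results below return to. They include the gap between the head-to-head pair of members (Mrps11 and Mrpl46) and the gap with the most NRF1 matches (Mrpl32 and Psma2). Mrpl17 and Mrpl3 are large-subunit genes with no partner and a high density of tags in their regions. Mrpl12 is the member with the smallest p-value between groups. The sequences are those of RefSeq (GRCm38.p6), run 5′ to 3′ towards the gene named first and end just before its start site, and hold only bases outside every gene of the RefSeq table. Capitals mark the NRF1 core GCATGCGC, the ETS word CCGGAAG or the YY1 word AAGATGGC, on either strand, with overlapping matches joined. Mrps11 and Mrpl46 on chr7:78783090-78783130, plus strand, carries none of the 3 words. The gap of Mrpl32 and Psma2 is chr13:14613038-14613241, minus strand, Mrpl17 is chr7:105811088-105811337, minus strand, Mrpl3 is chr9:105053018-105053267, plus strand, and Mrpl12 is chr11:120484387-120484636, plus strand.
Mrps11 to Mrpl46 gap: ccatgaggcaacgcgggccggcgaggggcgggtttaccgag
Mrpl32 to Psma2 gap: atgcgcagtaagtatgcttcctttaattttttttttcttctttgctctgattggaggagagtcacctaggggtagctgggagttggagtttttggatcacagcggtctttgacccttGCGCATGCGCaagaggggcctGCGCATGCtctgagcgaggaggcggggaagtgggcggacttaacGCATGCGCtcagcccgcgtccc
Mrpl17: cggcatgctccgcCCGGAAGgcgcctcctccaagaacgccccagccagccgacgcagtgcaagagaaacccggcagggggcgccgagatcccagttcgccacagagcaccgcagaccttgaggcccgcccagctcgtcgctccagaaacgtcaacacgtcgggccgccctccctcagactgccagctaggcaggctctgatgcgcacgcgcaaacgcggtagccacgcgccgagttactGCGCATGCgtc
Mrpl3: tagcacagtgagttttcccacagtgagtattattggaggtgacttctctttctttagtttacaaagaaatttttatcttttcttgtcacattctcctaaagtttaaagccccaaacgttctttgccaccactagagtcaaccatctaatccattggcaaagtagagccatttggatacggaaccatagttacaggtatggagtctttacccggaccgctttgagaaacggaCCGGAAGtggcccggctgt
Mrpl12: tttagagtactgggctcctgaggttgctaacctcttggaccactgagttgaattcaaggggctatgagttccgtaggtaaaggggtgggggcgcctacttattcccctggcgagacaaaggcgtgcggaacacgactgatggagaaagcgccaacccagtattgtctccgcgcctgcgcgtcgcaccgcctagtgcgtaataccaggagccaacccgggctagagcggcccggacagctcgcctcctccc

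H3K9ac was present at nearly every mitochondrial ribosomal protein gene in every library. Overlapping peaks of all libraries were merged into regions, and 72 of the 78 genes (92.3%) had a region with a peak in all 12 libraries at one of their ends, against 47.2% of all protein-coding genes. The 72 genes lay at 71 regions, because Mrpl46 and Mrps11 share one. No single library had a peak at fewer than 73 of the 78 genes: d22 libraries had 73 at the lowest, 75 at the median and 76 at the highest, and pbs libraries had 75, 75 and 76. The groups overlapped, and the lowest value was that of d22 4.

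The 6 genes outside this count fell into 2 kinds. Mrpl24, whose protein lies on the exit tunnel side of the large subunit, had no peak at its ends in any library, and Mrps2 and Mrps23 of the small subunit had one in 2 libraries each. For all 3 genes the start site of the RefSeq promoter table lies more than 1 kb inside the gene span, and there a peak was called in 12 of 12 libraries. At the start site of Mrpl24 the peaks held 52, 101 and 124 tags in d22 libraries (lowest, median, highest) and 62, 108.5 and 150 tags in pbs libraries. At that of Mrps23 they held 75, 161.5 and 199 tags in d22 libraries and 119, 180 and 244 tags in pbs libraries. At that of Mrps2 they held 46, 93 and 116 tags in d22 libraries and 66, 100 and 153 tags in pbs libraries. The groups overlapped at all 3 genes.

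Mrpl45, also on the exit tunnel side, Mrpl28 and Mrpl16 had a peak in 11 libraries each, and the library without one was d22 4 at all 3. Leaving d22 4 out brings the count to 75 of 78. At Mrpl45 the peaks held 44, 51 and 73 tags in the 5 d22 libraries that had one and 30, 55 and 71 tags in pbs libraries. The 30 tags were those of pbs 3, the pbs library of lowest depth. Tags of these genes are raw counts, not scaled for depth. Mrpl28 had 83, 109 and 121 tags in those 5 d22 libraries and 67, 108 and 159 tags in pbs libraries. Mrpl16 had 53, 72 and 85 tags in those 5 d22 libraries and 45, 72.5 and 110 tags in pbs libraries, so the groups overlapped at all 3 genes. A start site was listed for 69 of the 78 genes, and all 69 had a peak there in 11 or 12 libraries, against 50.5% of the protein-coding genes with a listed start.

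The level of the mark was measured as CPM (the standard depth-scaled unit, a region's tags relative to the library's total in the tested regions after TMM scaling) per kb of called length, here called tags per kb. Over the 71 regions the mean of the 12 libraries had a median of 37.4 tags per kb, between 22.8 and 68.6, and 49 of 71 (69.0%) were above the median of all 8594 regions at gene ends, 34.5 tags per kb. Above the 75th percentile of gene-end regions stood 28 of 71 (39.4%). Called length showed the reverse order: the median over the 71 regions was 1801 bp, against 2032 bp over gene-end regions, and 26 of 71 (36.6%) were longer than that. Called length is the divisor of tags per kb, so at equal tags a shorter call gives a higher value. The mean CPM, which is not divided by length, had a median of 69.8 over the 71 regions and 70.8 over gene-end regions. The regions were thus narrower and denser than the usual region at a gene end, but held no more tags at the median. This is a description of medians without a test. The within-library medians had the same order in both groups: member regions had 33.7, 38.2 and 42.4 tags per kb in d22 libraries (lowest, median, highest) and 33.8, 37.9 and 43.7 in pbs libraries, and gene-end regions 30.1, 35.3 and 38.4 in d22 libraries and 30.1, 33.2 and 39.0 in pbs libraries.

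**Figure D1:**
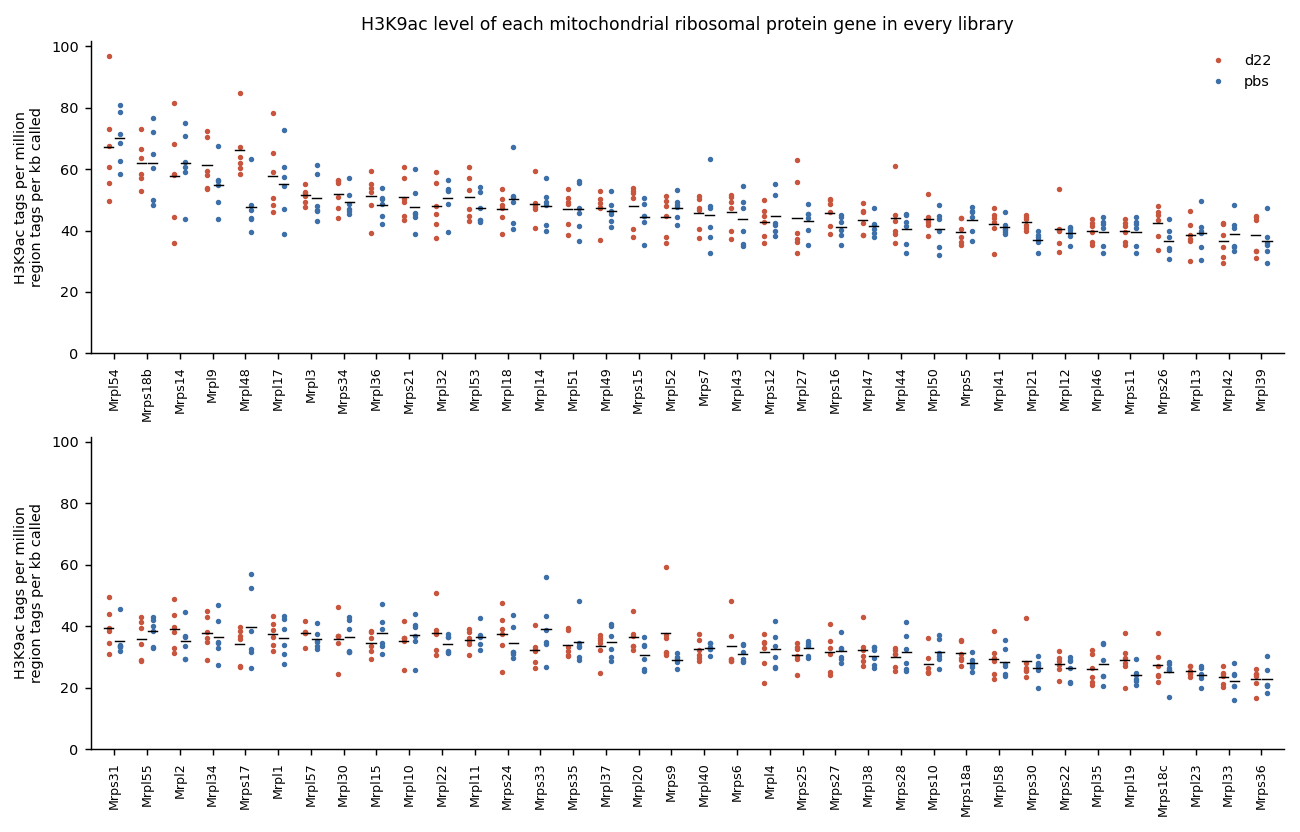
H3K9ac level (CPM per kb called) of the 72 genes with a region in all 12 libraries, ordered by mean level, with 1 point per library, d22 left of pbs, and a black line at each group mean (n = 6 each). Mrpl54 has the highest mean, 68.6 tags per kb, and Mrps36 the lowest, 22.8, and the groups overlap at both.

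The highest mean level, 68.6 tags per kb, was assigned to Mrpl54, a mitochondria-specific protein of the large subunit. That region also lies at an end of Apba3, an adaptor protein gene, and begins 981 bp beyond the end of Mrpl54, while a second region that overlaps Mrpl54 itself had a mean of 27.0 tags per kb. Mrps18b, one of 3 paralogs of a bacterial small-subunit protein, came next with 62.0 tags per kb at a region it shares with Ppp1r10, a regulatory subunit of protein phosphatase 1. It had 52.9, 61.0 and 73.1 tags per kb in d22 libraries and 48.4, 62.6 and 76.7 in pbs libraries, and the groups overlapped. Mrps14, a small-subunit protein, had a mean of 59.8 tags per kb with no other coding gene at its region. Its d22 libraries had 35.8, 58.2 and 81.6 tags per kb and its pbs libraries 43.7, 61.5 and 75, a wide spread within each group. Mrpl9 of the large subunit, also without a shared region, averaged 58.0 tags per kb, and Mrpl48, which shares its region with the vesicle transport gene Rab6a, averaged 56.8.

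The lowest levels were those of Mrps36 (22.8 tags per kb), Mrpl33 (22.9), Mrpl23 (24.8), Mrps18c (26.3) and Mrpl19 (26.5). Mrps36 is unusual among these genes, as its protein is known as a subunit of the oxoglutarate dehydrogenase complex of the citric acid cycle. It had 16.7, 24.2 and 26 tags per kb in d22 libraries and 18.4, 20.8 and 30.3 in pbs libraries, with overlapping groups. Mrpl33, a small protein of the large subunit, had 20.1, 24.1 and 27.0 tags per kb in d22 libraries and 16.0, 22.5 and 28.0 in pbs libraries, at a region whose mean called length of 885 bp was the shortest of the 71. The regions assigned to the 3 paralogs of the Mrps18 family spread over nearly the whole range. They averaged 62.0 tags per kb at Mrps18b, 29.6 at Mrps18a, whose protein sits in the large subunit, and 26.3 at Mrps18c. The Mrps18b value is that of the region shared with Ppp1r10. A second region at Mrps18b, shared with Atat1 and away from the start, averaged 24.4 tags per kb.

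By fixed lists for the parts of the ribosome, the 27 regions of large-subunit proteins listed with a bacterial homologue had a median of 37.1 tags per kb. The 20 of large-subunit proteins listed as mitochondria-specific had 40.7. The 15 regions of small-subunit proteins with a bacterial homologue had a median of 39.7 tags per kb and the 10 of mitochondria-specific ones 35.0. All 4 medians lay between the 25th and 75th percentiles of the 71 regions, 33.1 and 45.6 tags per kb. The split is that of the lists, which put Mrpl55 with the bacterial homologues and Mrps18a and Mrps18b with the mitochondria-specific proteins. Placing such genes otherwise would change the counts and medians by role. Around the peptidyl transferase centre, where peptide bonds form, Mrpl3 averaged 51.0, Mrpl27 43.5 and Mrpl2 37.1 tags per kb. In the stalk that recruits translation factors, Mrpl10 and Mrpl11 averaged 36.1 each. Mrpl12 was assigned 39.8, at a region beyond its end that also lies at Slc25a10, and the region over the Mrpl12 start averaged 47.9. On the decoding side of the small subunit, Mrps12 averaged 43.9 and Mrps5 41.6, in its head Mrps7 averaged 45.3 and Mrps9 33.4, and Mrps30, a large-subunit protein in spite of its name, averaged 27.5.

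Shared regions were common. Of the 72 genes with a region, 39 (54.2%) had a region that also lay at an end of another protein-coding gene, against 35.4% of all 10329 genes with a region. The 8 with the highest level among them were Mrpl54 (Apba3), Mrps18b (Ppp1r10), Mrpl48 (Rab6a), Mrps34 (Eme2, Nme3 and Mapk8ip3), Mrpl32 (Psma2), Mrpl53 (Ccdc142), Mrpl18 (Tcp1) and Mrpl14 (Tmem63b). The 38 shared regions had a median called length of 2134 bp, against 1438 bp for the 33 others, and a median level of 41.8 tags per kb, against 36.1. A longer region reaches more gene ends, so length and sharing are tied by construction. The longest of all, 6812 bp on average, spans Mrpl49 together with Fau, Znhit2 and Tm7sf2. Over all gene-end regions, the medians were 2350 bp and 36.9 tags per kb for 1920 shared regions, against 1957 bp and 33.9 tags per kb for 6674 others.

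**Figure D2:**
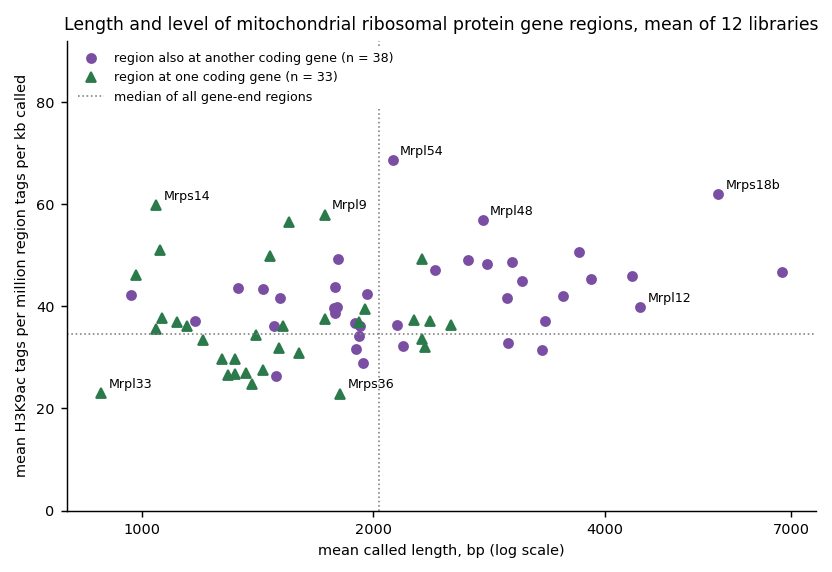
Mean level (CPM per kb called) against mean called length (bp, log scale) of the 71 regions, with circles for regions also at another coding gene (n = 38) and triangles for the others (n = 33). Dotted lines are the medians of all 8594 gene-end regions, 2032 bp and 34.5 tags per kb, and 49 regions lie above the level line.

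Start sites made the arrangement clearer. Of the 69 members with a listed start, 24 (34.8%) had a divergent partner, a coding gene that starts within 1 kb upstream on the other strand, against 8.48% of all 17492 protein-coding genes with a listed start and 16.3% of the 8372 of those with a region in all 12 libraries. Among the 63 members with both a start and a region, the share was 38.1%. The median distance between the 2 starts was 136 bp, between 32 bp (Mrpl21 and Ighmbp2) and 935 bp (Mrpl41 and Pnpla7). Several partners are themselves genes of mitochondrial or ribosomal proteins: Mrps12 starts 147 bp from Sars2, the mitochondrial seryl-tRNA synthetase, Mrpl43 116 bp from Twnk, the mitochondrial DNA helicase, Mrpl47 308 bp from Ndufb5, a subunit of respiratory complex I, Mrpl49 192 bp from Fau, which encodes a cytosolic ribosomal protein, and Mrps27 108 bp from Ptcd2. These partners were picked after their names were seen.

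Mrpl46 and Mrps11 are the single pair of members that share a region (chr7:78782089-78784507, mm10), their starts lie 42 bp apart, and the gap printed above is all the sequence between them. The region had 49.3, 71.6 and 86.8 CPM in d22 libraries and 63.0, 69.3 and 90.9 CPM in pbs libraries. The groups overlapped, and the log2 fold change was -0.03 with a 95% interval of -0.31 to 0.25. A peak over this gap cannot be divided between the 2 genes.

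The summit, the position of the highest pile of tags, followed the same division. For the 63 members with 1 listed start and a region there in all 12 libraries, the median summit was 183.5 bp downstream of the start, against 236.75 bp for 6666 such genes in all. Without a divergent partner, the median was 212 bp downstream and 37 of 40 summits lay downstream, with peaks reaching 485.25 bp upstream of the start at the median. With a partner, 12 of 23 lay downstream, the median was 98 bp and the peaks reached 1095.5 bp upstream. Over all genes the medians were -71.5 bp, upstream of the start, with a partner (n = 1060) and 259.75 bp downstream without (n = 5606). The median summit of members with a partner was -19 bp in d22 libraries and -45 bp in pbs libraries, and that of members without one 230.75 bp and 215.75 bp.

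Named examples show the range. At the shared region of Mrpl46 and Mrps11 the summit lay at -406 bp from the Mrpl46 start, upstream of it, and 364 bp downstream of the Mrps11 start, so the highest pile of tags sat on the Mrps11 side. At Mrps18b it lay at -942 bp, on the side of Ppp1r10, and between -1502 and -830 bp in all 12 libraries. Mrpl27, on the peptidyl transferase side, starts 48 bp from Eme1, and its summit stayed between 73 and 145 bp downstream in all 12 libraries. Among members without a partner, Mrpl20 had its summit 1136.5 bp inside the gene, and Mrpl39, Mrps6 and Mrps10 had theirs upstream.

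**Figure D3:**
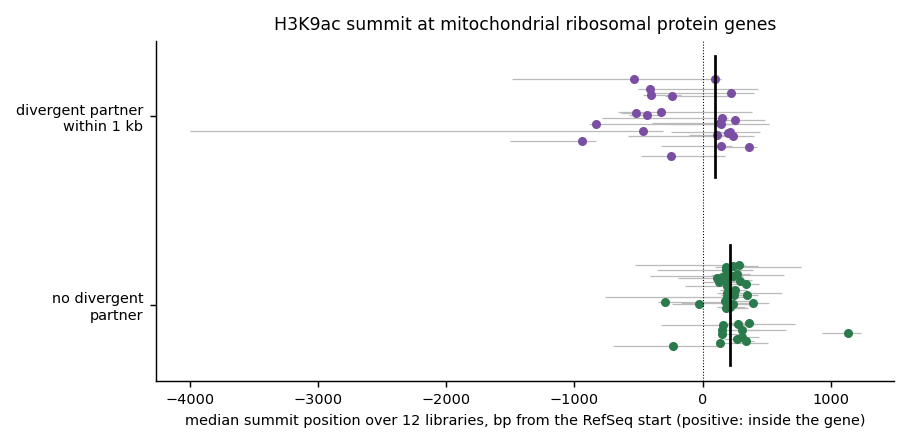
Position of the H3K9ac summit relative to the RefSeq start (bp, positive inside the gene) for 63 members, with points for the median over 12 libraries, grey lines from the lowest to the highest library and black bars for the group medians. Members with a divergent partner spread to both sides (12 of 23 downstream), and 37 of 40 without one lie downstream.

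The promoter letters were searched from 250 bases before to 50 bases after the listed starts, on both strands, with overlapping matches counted. The ETS word CCGGAAG was found at 26 of 69 members (37.7%), against 22.1% of the 8372 genes with a listed start and a region in all 12 libraries and 12.9% of all genes with a listed start. The YY1 word AAGATGGC was found at 12 of 69 (17.4%), against 5.70% and 3.57%, and the NRF1 core GCATGCGC at 8 of 69 (11.6%), against 6.56% and 3.94%. At least 1 of these 3 was present at 38 of 69 members (55.1%), against 31.1% and 18.7%.

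The 5 other words were found at members at or below their share among genes with a region. The Sp1 word GGGCGG was found at 34 of 69 (49.3%), against 69.0% of genes with a region and 49.2% of all, and the NF-Y word CCAAT at 27 (39.1%), against 43.0% and 42.3%. The E-box CACGTG stood at 5 members (7.25%), against 12.0% and 8.91%, the CRE word TGACGTCA at 2 (2.90%), against 3.71% and 2.54%, and the TATA box TATAAA at 5 (7.25%), against 8.29% and 14.8%. Median GC content was 58.3% at members, against 62.0% at genes with a region, and the number of CpG steps was 21, against 22. These are shares of letters and show neither a bound factor nor its absence.

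Every match lies near a start because only that stretch was searched, and positions at other genes are not given. ETS words had a median position of -17 bp from the start, NRF1 cores of -49.5 bp and YY1 words of 15 bp. The medians of the other words were -79 bp (Sp1), -86 bp (NF-Y), -139 bp (E-box), -101.5 bp (CRE) and -154 bp (TATA box). The NRF1 median rests on 14 matches at 8 members, with overlapping matches counted separately. The YY1 matches of Mrps11 (-107) and Mrpl32 (-242) lie beyond the gaps printed above, inside the partner gene. In the gap of Mrpl32 and Psma2, a proteasome subunit gene, the NRF1 core matched at positions -87, -85, -66 and -22, where the first and second overlap as one palindrome. Mrpl32 had 37.7, 46.7 and 59.1 tags per kb in d22 libraries and 39.5, 52.9 and 56.5 in pbs libraries, with overlapping groups. Mrpl17 holds both an ETS word and an NRF1 core and averaged 56.5 tags per kb, and Mrpl3 holds an ETS word near its start. The stretch before Mrpl12 holds none of the 3 words.

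**Figure D4:**
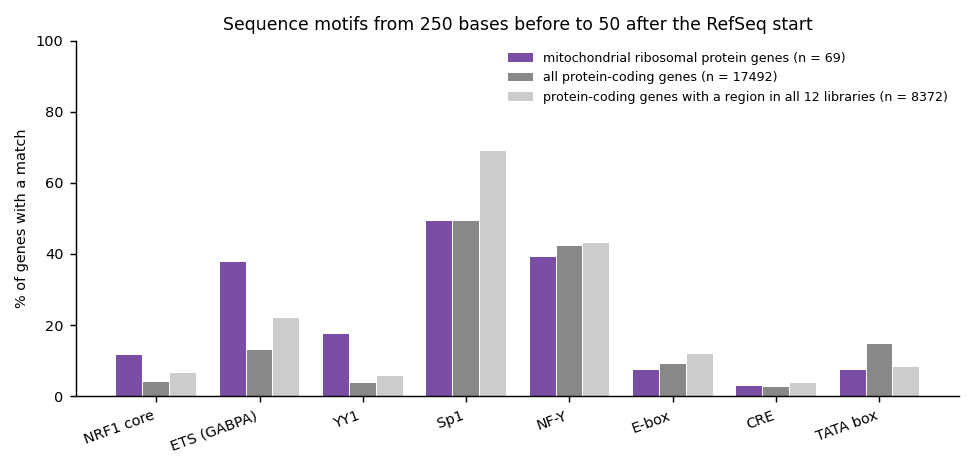
Share of genes (%) with at least 1 match of each named motif from 250 bases before to 50 after the RefSeq start, for 69 mitochondrial ribosomal protein genes, all 17492 protein-coding genes with a listed start and the 8372 of them with a region in all 12 libraries. ETS (37.7%), YY1 (17.4%) and NRF1 (11.6%) shares are above both sets, and the Sp1 share (49.3%) is below that of genes with a region (69.0%).

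No mitochondrial ribosomal protein region was called as different between d22 and pbs libraries in its tags. By the quasi-likelihood test of edgeR with Benjamini-Hochberg adjustment over all 12375 regions, 0 of 71 were called at an adjusted p under 0.05, against 125 of 12375 regions (1.01%), and DESeq2 also called 0 of 71. At an unadjusted p under 0.05 there were 3 of 71 (4.23%) by edgeR, against 10.9% of all regions, and 4 of 71 by DESeq2. The log2 fold changes ran from -0.25 to 0.29 with a median of -0.01, against 0.003 over all regions, and 29 were positive and 42 negative. The 95% intervals of 69 of 71 lay wholly within 1.5-fold in either direction and those of all 71 within 2-fold. Over all 12375 regions, those of 8946 lay within 1.5-fold and those of 11750 within 2-fold. At every one of the 71 regions the CPM ranges of the groups overlapped, and the share of all regions with such overlap is not given here.

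The same regions took 0.549% to 0.638% of region tags in d22 libraries, with a median of 0.615%, and 0.599% to 0.638% in pbs libraries, with a median of 0.612%. The lowest share was that of d22 4. By the same role lists, 10 of 27 fold changes were positive for large-subunit proteins listed with a bacterial homologue (median -0.05). For large-subunit proteins listed as mitochondria-specific, 5 of 20 were positive (median -0.02). In the small subunit, 11 of 15 were positive for proteins listed with a bacterial homologue (median 0.06) and 3 of 10 for those listed as mitochondria-specific (median -0.04). None of the 4 groups held a called region, and their unadjusted counts under 0.05 were 1, 2, 0 and 0. Single members behind these medians had log2 fold changes of 0.11 (Mrpl10), -0.01 (Mrpl11), 0.03 (Mrpl2) and -0.06 (Mrpl3) in the large subunit and 0.09 (Mrps12), -0.17 (Mrps5) and 0.13 (Mrps7) in the small subunit. The Mrps18 paralogs had -0.10 at Mrps18b, 0.18 at Mrps18c and -0.003 at Mrps18a, Mrps36 had -0.03, Mrps30 had 0.05, and Mrpl58, a peptidyl-tRNA hydrolase built into the large subunit, had -0.14.

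**Figure D5:**
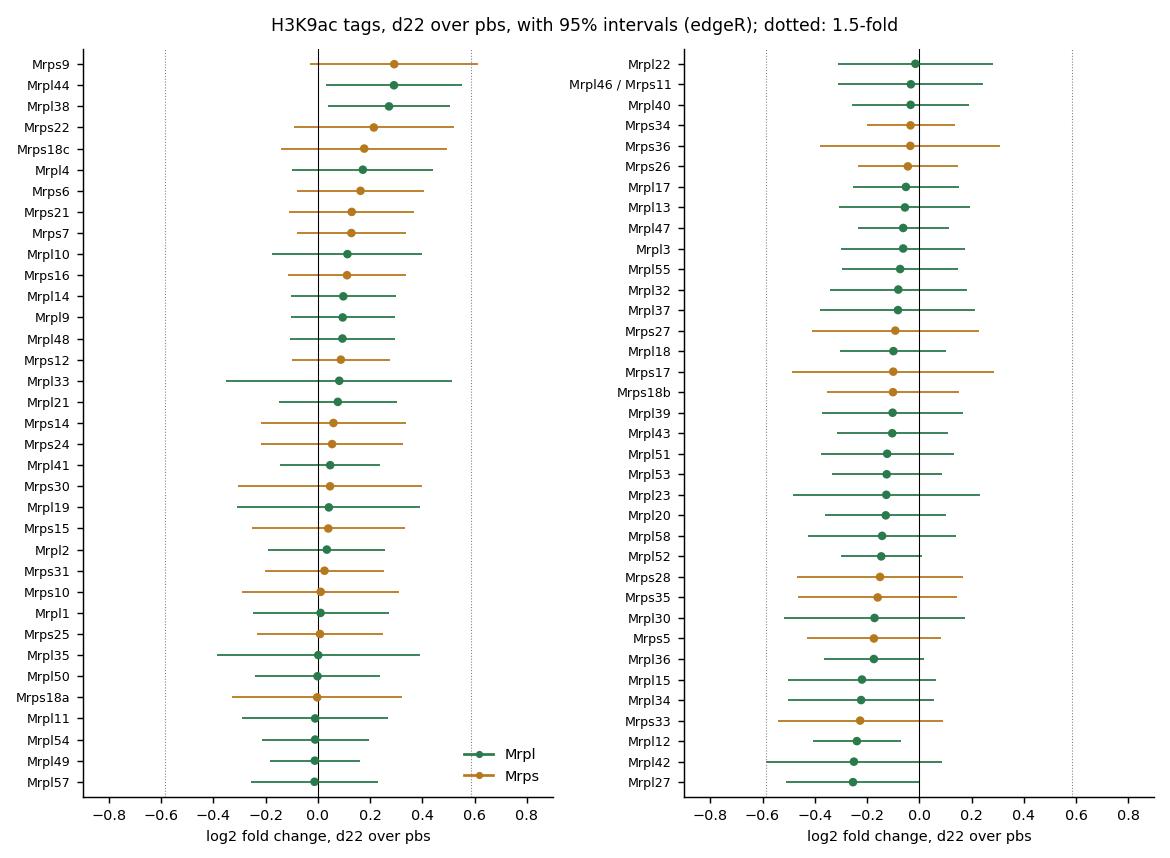
Log2 fold change of H3K9ac tags, d22 over pbs, at the 71 regions (points) with 95% intervals (lines) from edgeR, Mrpl in green and Mrps in brown, ordered from the highest to the lowest down the left and then the right panel. All points lie between -0.25 and 0.29, and dotted lines mark 1.5-fold.

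Mrpl12, a stalk protein of the large subunit also known to bind the mitochondrial RNA polymerase, had the smallest p-value of the members. Its region with the most tags (chr11:120489476-120495130) begins 722 bp beyond the end of the gene and also lies at an end of Slc25a10, the mitochondrial dicarboxylate carrier. There it had 147, 157 and 175 CPM in d22 libraries and 163, 196 and 205 CPM in pbs libraries, with a log2 fold change of -0.24 (SE 0.08, 95% interval -0.41 to -0.07, edgeR adjusted p = 0.232). The neighbouring region over the Mrpl12 start (chr11:120483589-120489467), which also reaches Hgs, had 134, 142 and 157 CPM in d22 libraries and 148, 171 and 195 CPM in pbs libraries. There the log2 fold change was -0.29 (SE 0.08, 95% interval -0.46 to -0.12, edgeR adjusted p = 0.120). The groups overlapped at both regions, and neither was called.

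The other large-subunit members with the smallest p-values and negative fold changes were Mrpl27 (-0.25, with Eme1), Mrpl52 (-0.15, with Mmp14), Mrpl36 (-0.17) and Mrpl34 (-0.22, with Abhd8), with edgeR adjusted p-values between 0.462 and 0.586. Mrpl27 had 44.6, 48.9 and 59.5 CPM in d22 libraries and 51.0, 63.6 and 68.8 CPM in pbs libraries. At Mrpl34 the d22 libraries had 30.4, 39.0 and 46.8 CPM and the pbs libraries 41.9, 44.7 and 57.4 CPM. The groups overlapped at both. The Mrpl52 region lies at the Mmp14 end of the gene, and the region over the Mrpl52 start had a log2 fold change of -0.15 as well (95% interval -0.34 to 0.05).

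On the positive side stood Mrpl38 (0.27), Mrpl44 (0.29), Mrps9 (0.29), Mrps22 (0.21) and Mrps6 (0.16), with edgeR adjusted p-values between 0.364 and 0.664. The value of Mrps6 was 0.09 without pbs 2, 0.10 without d22 4 and 0.28 among the libraries with 49-bp tags. Mrpl38, a mitochondria-specific large-subunit protein, had 101, 109 and 147 CPM in d22 libraries and 78.9, 91.4 and 114 CPM in pbs libraries at a region shared with Trim65, and its 95% interval was 0.04 to 0.50. The region at the other end of Mrpl38, shared with Fbf1, had 51.0, 54.7 and 72.4 CPM in d22 libraries and 53.9, 74.1 and 105 CPM in pbs libraries, and a log2 fold change of -0.38 (95% interval -0.69 to -0.07, edgeR adjusted p = 0.323). The 2 ends of this gene thus had fold changes of opposite sign, neither of them called, and no start is listed to say which end is the promoter.

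Mrpl44, which carries a ribonuclease-like fold, had 37.4, 44.2 and 51.2 CPM in d22 libraries and 33.7, 35.0 and 39.7 CPM in pbs libraries at a region shared with Wdfy1, with a 95% interval of 0.03 to 0.55. Mrps9, in the head of the small subunit, had 33.1, 42.1 and 60.7 CPM in d22 libraries and 28.7, 35.6 and 40.8 CPM in pbs libraries. The 60.7 CPM were those of d22 4, and without d22 4 the log2 fold change of Mrps9 was 0.20. The groups overlapped at both Mrpl44 and Mrps9. Of 9 members with more than 1 region in all 12 libraries at their ends, the region used was the one with the most tags, and at 4 of the 63 members with a listed start (Mrpl12, Mrpl22, Mrpl52 and Mrpl58) it did not reach the start. Taking the region at the start instead gave 74 regions with 0 called.

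Length and density of the called regions were tested on the log2 scale with limma. For called length, 0 of 71 regions were called, and 0% of all regions were called. Unadjusted p-values under 0.05 were found at 3 of 71, against 6.81% of all regions. These were Mrpl48 (log2 fold change -0.38), Mrpl20 (-0.37) and Mrpl34 (-0.30). Mrpl48 had called lengths of 2152 to 2516 bp in d22 libraries and 2679 to 3603 bp in pbs libraries. These ranges did not overlap, and the share of all regions without overlap in length is not given here. Its limma adjusted p was 0.276, and its 95% interval was -0.58 to -0.18. The median log2 fold change in length was -0.07 over the 71 regions and -0.08 over all regions.

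For tags per kb, 0 of 71 were called, against 0.0404% of all regions, and 2 of 71 had an unadjusted p under 0.05, against 5.54%. Mrpl48 had 58.5, 62.9 and 84.6 tags per kb in d22 libraries and 39.4, 45.3 and 63.2 in pbs libraries, a log2 fold change of 0.48 (95% interval 0.21 to 0.75, limma adjusted p = 0.521) at a log2 fold change in tags of 0.09. Length enters this measure as its divisor, so the length and density values of Mrpl48 are not separate observations. The second was Mrps9, with 30.7, 33.9 and 59.2 tags per kb in d22 libraries and 26.1, 29.4 and 31.3 in pbs libraries (log2 fold change 0.34, limma adjusted p = 0.861). Its highest value, 59.2, was that of d22 4.

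Presence and absence of peaks was tested as well. Of 16871 regions with a peak in 2 to 10 libraries, 0 (0%) were called by Fisher's exact test with Benjamini-Hochberg adjustment, and 99 had an unadjusted p under 0.05. The members had 19 regions in fewer than 12 libraries at their ends, 12 of them in 1 library only, and that library was d22 4 for 8 of the 12. Of the 4 that could be tested none had an unadjusted p under 0.05. The smallest exact p was 0.455, at a region shared by Mrpl49 and Syvn1 with a peak in 0 d22 and 2 pbs libraries. A region with a peak in only 2 libraries cannot give a smaller p than this, so such regions could not have been called. For the other regions too, few libraries per group and adjustment over 16871 regions left little room for any call.

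Nearly all listed genes that work with the mitochondrial ribosome carried the mark. The 5 listed ribosomal proteins under other names (Dap3, Ptcd3, Chchd1, Aurkaip1 and Gadd45gip1) all had a region in all 12 libraries, with a median of 44.3 tags per kb, and so did 16 of 16 translation factors (40.4 tags per kb) and 24 of 24 assembly and rRNA modification genes (34.0 tags per kb). Of 19 genes of mitochondrial transcription and its nuclear regulators, 16 had one (42.2 tags per kb). Of the 3 without, Polg, the mitochondrial DNA polymerase, had peaks at its ends in 10 libraries. Ppargc1a, the coactivator PGC-1 alpha, had one in 1 library, and Gabpb1, a partner of GABPA, had none. Peaks at a start inside the gene span, as found at Mrpl24, are missed by this rule. Start-site peaks of these 3 genes are not given here, so absence of the mark cannot be read from these counts.

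On tags, edgeR called none of these regions, with 0 of 5, 0 of 16, 0 of 24 and 0 of 16 in the 4 lists, and unadjusted counts under 0.05 of 1, 0, 0 and 1. The 2 were Gadd45gip1 (log2 fold change 0.26, SE 0.12, edgeR adjusted p = 0.458) and Pprc1, a coactivator related to PGC-1 alpha (0.18, SE 0.08, edgeR adjusted p = 0.445). The median log2 fold changes of the lists were 0.08, -0.01, -0.09 and 0.005. Of the factors whose words were searched, 4 are in this list, and their genes had log2 fold changes of -0.13 (Gabpa), 0.13 (Nrf1), 0.08 (Yy1) and -0.02 (Sp1), none of them called.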

How the data were processed

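H3K9ac peak tables of 12 libraries (6 d22, 6 pbs) were used. CASAVA 1.8, Novoalign, MACS 1.4.2 and the mm10 build are named in the submitters' processing notes. Per the file headers, every library had its own peak call, with 1 pooled input per group as control (12526421 tags with d22 and 10409931 with pbs) at a p-value cutoff of 1e-05, with at most 1 tag kept per position, and tags were 48 bp long in pbs 1, 4 and 6 and 49 bp in the others. The deposited columns used were raw tag counts per peak, peak length and summit in bp, a peak score (the p-value as -10log10) and a fold enrichment ratio over background. The deposited false discovery rate in percent was not analysed further.

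Overlapping peaks of all libraries were merged into 57979 regions. Tags of a library were summed per region. A missing peak gives no count, so counts were tested only at the 12375 regions with a peak in all 12 libraries. Tests used edgeR 4.0.16 (quasi-likelihood, TMM scaling, group as the only term) in R 4.3.3 for tags, limma 3.58.1 for log2 called length and log2 tags per kb (no pseudocount), and Fisher's exact test (SciPy 1.17.1) for presence, adjusted by Benjamini-Hochberg over all regions tested. CPM were computed by edgeR from a library's TMM-scaled total in tested regions. DESeq2 1.42.0 was an alternative.

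Genes, starts and promoter letters came from RefSeq (GRCm38.p6). The gene table gives gene ends without strand, so some regions lie at a 3' end, and starts were listed for 69 of 78 members. Where several regions lay at a gene's ends, the one with most tags was used. Of the listed genes, Mtrfr and Trmt61b were not matched in the gene table and 9 of 10 hepatocyte markers were found. Genes named with values were members called in any test, the 5 smallest p-values in each direction, the 5 highest and 5 lowest levels, members without a peak in all 12 libraries, members sharing a region, the 8 strongest regions shared with another gene and listed role examples. The members, lists and tests were chosen with earlier results of these data known. On simulated data, the edgeR test on tags found 46 of the 100 simulated 1.5-fold changes and 80 of the 100 simulated 2-fold changes. It gave 10 false positives in 12375 regions. Limma found 45 and 79 with 10 false calls, but there every region was given the same length of 1 kb. The limma figures thus leave out the spread of called length that enters tags per kb in the real data. No pair of libraries agreed within counting noise (chi-square per degree of freedom 2.41 to 10.3 over 66 pairs). Alternatives were scaling, tool, filters, peak score, window, region choice, tag length, replicate block and each library left out.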

Additional observations from a re-analysis of the deposited data

Results flagged for a closer look

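In 28 sets of 6 values tested for a single library far from the others, 3 were picked out. For sets chosen without regard to their values, chance alone picks out about 1 in 20. That rate need not hold here. The CPM sets are of members with the smallest p-values in each direction, and the numbers of members with a peak hold ties. The number of members with a peak was 73 in d22 4, against 75 to 76 in the other d22 libraries. Mrpl38 had 147 CPM in d22 4, against 101 to 117 CPM in the other d22 libraries, and without d22 4 its log2 fold change was 0.20, against 0.27 with it. Mrpl34 had 57.4 CPM in pbs 3, against 41.9 to 46.9 CPM in the other pbs libraries, and without pbs 3 its log2 fold change was -0.16, against -0.22 with it. The peak number of d22 4, 44585, stood apart as well, and its part in these values was not tested.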

How the results depend on the processing

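Called members on tags stayed at 0 in 21 of 23 alternatives, including each library left out (0 to 0). With library totals as the only scaling, which moved the median of all regions to -0.22, 1 member was called (Mrpl12, -0.25 relative to that shift, adjusted p = 0.0331) of 454 regions in all, 26 higher and 428 lower. With the authors' fold enrichment, which moved it to -0.30 and was made against a different input in each group, 24 were called (2 higher, 22 lower) of 2503, of which 166 were higher and 2337 lower, and relative to that shift Mrpl12 was reversed at 0.70 and Mrpl36 at 0.050. The cause was not tested. Calls on length, tags per kb and presence stayed at 0 under every alternative run, with 0 to 0 when a library was left out. For presence, so few libraries per group left little room for any call. The median log2 fold change of members was -0.07 to -0.002 over all alternatives (relative to the shift of all regions in the 2 alternatives just named) and -0.04 to -0.002 with a library left out. The count of members with a peak in all 12 libraries was 71 to 75, and 72 to 75 with a library left out.

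Over all regions, 125 were called on tags, 272 by DESeq2, 39 among libraries with 49-bp tags, 0 of 2599 with exactly 1 peak in every library, and 64 to 139 with a library left out, where leaving out pbs 3 (64), pbs 4 (69), d22 6 (70), pbs 5 (70), d22 2 (72) or pbs 2 (76) moved the count most. On called length the 0 calls became 35 without d22 1, and on tags per kb the 5 calls became 19 with library totals, 12 with the replicate block and 0 to 5 with a library left out (0 without d22 2, 5 or 6 or pbs 1, 4 or 6, and 3 without pbs 5). The deviations of same-numbered libraries had correlations of -0.007 to 0.157, 1 of 6 over 0.1, and 3 of the 6 numbers had their own number as best match. These values do not settle whether same-numbered libraries are pairs, and the main tests did not treat them as paired. A paired fit with the replicate block called 0 members of 128 regions on tags, 0 on length and 0 on tags per kb. At the depth and spread of these libraries, simulated 1.5-fold changes were missed at 54 of 100 regions.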
